A study of Mus musculus with 93 samples.

Results

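The acute phase response genes are a group of 32 mouse genes whose products are made or used by the liver when inflammation reaches it, and their levels are described here across 93 libraries of liver RNA. The members are a list of symbols, and each was found by its Ensembl gene ID in the deposited tables, giving 32 of 39179 genes. By role they are the serum amyloid A apolipoproteins (Saa1, Saa2, Saa3 and Saa4), the binding and carrier proteins (Orm1, Orm2, Orm3, Lcn2, Hp, Hpx and Cp), the recognition proteins and complement (Crp, Apcs, Mbl1, Mbl2, Lbp, Cd14 and C3), the fibrinogen chains (Fga, Fgb and Fgg), the protease inhibitors (Itih3, Itih4, A2m, Serpina3n and Serpina3m), and the receptors and signalling genes (Il1r1, Il6ra, Osmr, Stat3, Socs3 and Steap4). All mice were C57BL/6. The knock-in mice were heterozygous for an Htt allele with a labelled CAG length of 20 (Q20), 50 (Q50), 92 (Q92) or 140 (Q140). CAG is the trinucleotide repeat that is long in Huntington's disease. The housing of each knock-in mouse was taken here as that of its own genotype. Wild-type mice (WT) were labelled as housed with wild-type and Q50 mice or with wild-type and Q20 mice. No wild types housed with Q92 or Q140 mice were analysed here. Both sexes were taken at 10 and at 6 months of age, which gave 24 groups, 21 of them with 4 libraries and 3 with 3 libraries (Q20, Q92 and Q140 males of 10 months). No treatment is given for any group. The labels number the replicates but do not say that each is a separate animal, and a p-value here therefore reflects how far libraries of a group spread.

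The acute phase response is the change in liver secretion that follows infection or injury. Interleukin-6 acts through its receptor and Stat3, and interleukin-1 acts through Il1r1 and NF-kB, and both together with C/EBP factors raise transcription of the serum amyloid A, orosomucoid, haptoglobin and fibrinogen genes in hepatocytes. Socs3 is induced by the same signal and limits it. In mice Saa1 and Saa2 are the main inducible serum amyloid A proteins, Apcs (serum amyloid P) responds more than C-reactive protein (Crp), and a few proteins such as albumin and transthyretin fall while the others rise.

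The 4 members with the widest fold range between libraries are shown by the promoter window of RefSeq. The windows run from 250 bases before to 50 bases after the annotated start, on build GRCm38.p6, and are written 5′ to 3′ along the strand of the gene. Saa1 lies at chr7:46742931-46743230 on the minus strand, Saa2 at chr7:46751583-46751882 on the plus strand, Orm2 at chr4:63362199-63362498 on the plus strand and Lcn2 at chr2:32387690-32387989 on the minus strand. Capitals mark the match to the C/EBP letters TTGCNNAA, read on both strands.
Saa1: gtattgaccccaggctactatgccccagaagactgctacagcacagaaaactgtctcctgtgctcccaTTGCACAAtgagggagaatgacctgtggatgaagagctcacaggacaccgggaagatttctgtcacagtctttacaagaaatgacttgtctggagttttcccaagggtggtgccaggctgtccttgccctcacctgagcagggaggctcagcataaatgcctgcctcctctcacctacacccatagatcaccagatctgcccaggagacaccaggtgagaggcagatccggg
Saa2: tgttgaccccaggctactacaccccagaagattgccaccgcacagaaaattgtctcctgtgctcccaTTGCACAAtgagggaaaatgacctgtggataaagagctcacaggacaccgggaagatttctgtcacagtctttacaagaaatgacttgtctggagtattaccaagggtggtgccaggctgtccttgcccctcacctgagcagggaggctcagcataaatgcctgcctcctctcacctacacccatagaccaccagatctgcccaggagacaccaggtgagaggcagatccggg
Orm2: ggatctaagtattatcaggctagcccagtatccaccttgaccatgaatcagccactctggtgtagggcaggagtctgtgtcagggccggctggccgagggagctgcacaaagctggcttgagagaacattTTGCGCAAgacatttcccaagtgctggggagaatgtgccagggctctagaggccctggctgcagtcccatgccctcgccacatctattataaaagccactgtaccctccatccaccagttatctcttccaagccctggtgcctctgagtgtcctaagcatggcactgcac
Lcn2: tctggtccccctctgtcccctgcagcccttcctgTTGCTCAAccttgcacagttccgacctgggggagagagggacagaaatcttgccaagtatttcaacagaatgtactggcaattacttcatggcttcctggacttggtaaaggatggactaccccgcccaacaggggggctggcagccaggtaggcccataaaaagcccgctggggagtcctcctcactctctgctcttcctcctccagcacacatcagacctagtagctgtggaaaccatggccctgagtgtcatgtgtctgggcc
Each of the 4 windows held 1 such match, which began 182 bases before the start in Saa1, 183 in Saa2, 120 in Orm2 and 216 in Lcn2. None of the 4 held the STAT letters TTCNNNGAA on either strand. Saa1 and Saa2, which point away from each other with GENCODE starts 8810 bases apart, had the same base in 287 of 301 aligned columns of this window (95.3%). Promoter windows were matched for 26 of the 32 members, 28 windows in all. The C/EBP letters were in 14 of the 28, against 10.8% of all 32851 mouse promoter windows. The STAT letters were in 6 (those of Apcs, Fga, Fgb, Itih4, Socs3 and Steap4), against 8.30%. The NF-kB letters were in 2 (those of Serpina3n and Steap4), against 1.63%. Windows of similar copies such as Saa1 and Saa2 are counted singly here and are not independent. These matches are letters in a window and no measure of binding.

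The libraries held 28752184 to 46776898 counts, of which the members took 1.96 to 7.06% (median 3.32%). Summed hepatocyte markers were between 66958 and 138480 CPM (counts scaled to library size) in every library, and none of the 7 markers had a median of 0. Htt, the gene that carries the repeat, had a log2 difference of −0.53 ± 0.10 between Q140 and Q20 livers of 10 months (edgeR's quasi-likelihood test, Benjamini-Hochberg adjusted p = 0.0137). The difference was −0.33 ± 0.10 at 6 months (adjusted p = 0.13), and in Q92 against Q20 mice it was −0.31 ± 0.10 at 10 months (0.0791) and −0.37 ± 0.10 at 6 months (0.159). Errors of log2 differences are standard errors throughout. These counts do not read the length of the repeat. A set of 4 libraries stood apart. Brain transcripts summed to 126.5 CPM in replicate 1 of the Q140 females of 10 months and to 46.1 CPM in replicate 4 of the Q140 males of 6 months, against a median of 19.6 CPM over the series. The mitochondrial share of counts was 26.8% in replicate 1 of the WT males housed with Q20 of 10 months and 15.5% in replicate 1 of the Q92 males of 6 months, and lower in all others. Results that change without these libraries are given with and without them. In whole liver, fewer cells of a type and less RNA per cell cannot be told apart.

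By median FPKM (fragments scaled by transcript length and library size, as the authors deposited them) over the 93 libraries, the highest levels were those of Fgb (2290.3), Hpx (2073), C3 (2003), Fgg (1920.0), Fga (1588) and Hp (1319), which are the abundant plasma proteins of clotting, complement and haem or haemoglobin binding. Orm1, a drug- and lipid-binding plasma protein, had a median of 854 FPKM, whereas its neighbours Orm2 and Orm3 had medians of 39.7 and 7.34 FPKM. Saa4, the constitutive serum amyloid A, had 107 FPKM, against 57.4 for Saa1, 24.7 for Saa2 and 3.49 for Saa3. The signalling members were low, with Stat3 at 29.5, Il6ra at 10.5, Il1r1 (the interleukin-1 receptor) at 8.23, Socs3 at 1.98 and Osmr (the oncostatin M receptor) at 0.815 FPKM. Cd14, the lipopolysaccharide co-receptor of macrophages, had a median of 1.89 FPKM. The 4 serum amyloid A genes lie together within chr7:46711998-46754313, the 3 orosomucoid genes within chr4:63344560-63365878 and the 3 fibrinogen chains within chr3:83007724-83049863 (GENCODE annotation of GRCm38). A2m was near 0 in adult liver, with 0 to 21 counts per library and none at all in 21 libraries, so no fold is given for it.

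Between the lowest and the highest of the 93 libraries, Saa2 ranged 412-fold in CPM, Lcn2 (lipocalin 2, which binds bacterial siderophores) 313-fold, Saa1 259-fold, Orm2 135-fold and Orm3 65.4-fold. Socs3 ranged 25.6-fold, Saa3 14.6-fold and Cd14 10.7-fold. The other members with counts in every library ranged between 2.21-fold (Crp) and 8.40-fold (Il1r1). Saa1 ran between 5.67 and 1470.2 CPM with a median of 33.5 CPM, and was above 100 CPM, a level chosen after the values were seen, in 23 of 45 males and 5 of 48 females. The Saa2 to Saa1 ratio of CPM lay between 0.212 and 0.862, with a median of 0.448, so Saa2 was below Saa1 in every library. Saa1 and Saa2 share 13.2% and 11.2% of their 50-base stretches of annotated transcript, and Orm1 and Orm2 share 20.4%, so the division of reads between these copies is uncertain. Members of such families do not count as independent measures.

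**Figure D1:**
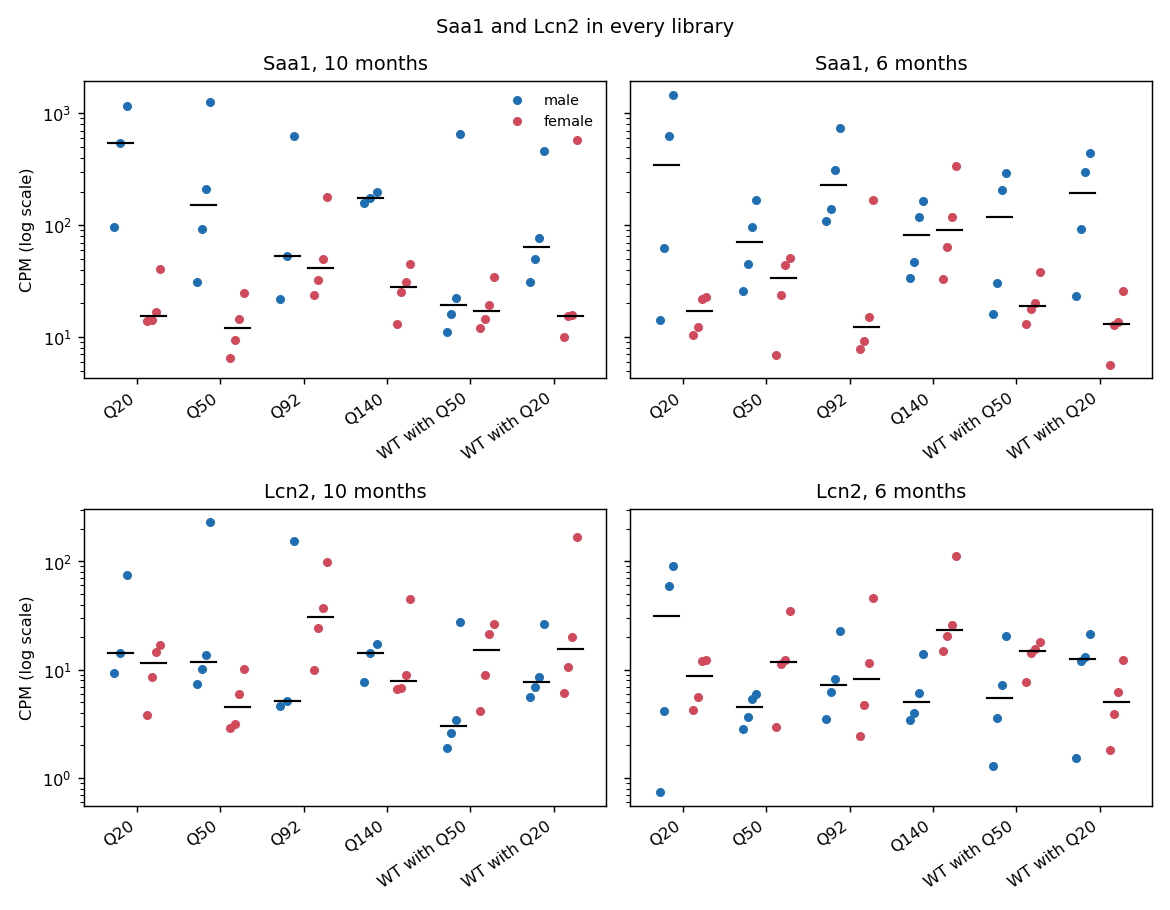
Saa1 and Lcn2 in CPM (log axes) in each of the 93 libraries, by genotype and housing, age and sex, with 1 point per library. Saa1 ran between 5.67 and 1470.2 CPM, and single libraries far above the rest of their group appear in knock-in and in WT groups alike.

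The 6 libraries with the highest summed Saa1 and Saa2 level were spread over genotypes, and 5 of the 6 were male. They were replicate 4 of the Q20 males of 6 months (2535 CPM), replicate 1 of the Q50 males of 10 months (2364 CPM), replicate 2 of the Q20 males of 10 months (1863 CPM), replicate 1 of the Q92 males of 6 months (1329 CPM), replicate 1 of the WT males housed with Q50 of 10 months (1177 CPM) and replicate 4 of the WT females housed with Q20 of 10 months (1047 CPM). The next library, replicate 1 of the Q20 males of 6 months, had 1038.6 CPM, so the boundary between the sixth and the seventh falls in a continuous range. These libraries were chosen by Saa1 and Saa2, and what follows about them is a description with no test. Each was compared with the other libraries of its own group, 3 libraries or, for Q20 males of 10 months, 2.

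In 5 of the 6 libraries most of the 29 members other than Saa1, Saa2 and A2m were above every other library of the group. A gene can be above 2 or 3 other libraries by order alone, so the share of all 16126 tested genes in the same library is given beside each count. In replicate 4 of the Q20 males of 6 months, 23 of the 29 members were above all others (30.6% of all genes) and 18 were more than 2-fold above the median of the others (5.25% of all genes), while 1 was below all others (26.8% of all genes). Saa1 was 1470.2 CPM there, against 14.2, 63.0 and 621 CPM in its group, and Lcn2 was 91.4 CPM, against 0.736, 4.15 and 58.9 CPM. Socs3, the feedback inhibitor of Stat3 signalling, was 38.0 CPM there, against 3.37 to 4.12 CPM, and Stat3 itself was 229 CPM, against 109.8 to 118 CPM. It was the library among the 6 with the highest Socs3, whereas the other 5 had 4.94 to 11.4 CPM. Il6ra, the ligand-binding chain of the interleukin-6 receptor, was the member below all others of the group.

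Replicate 1 of the Q50 males of 10 months had 26 of the 29 members above all others of its group, where 25% of all genes were, and 1 below (22.2% of all genes). It had 9 members more than 2-fold above the median of the others, against 3.92% of all genes. Lcn2 was 230.2 CPM there, against 7.38 to 13.6 CPM, Orm2 was 323 CPM, against 18.2 to 25.8 CPM, and Steap4, a metalloreductase induced by inflammation, was 562 CPM, against 134 to 199 CPM. Its Lcn2 and Steap4 were the highest of the series. Mbl2, a mannose-binding lectin of the complement system, was below all others in this library at 168 CPM, against 228 to 236 CPM.

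Replicate 4 of the WT females housed with Q20 of 10 months had 26 of the 29 members above all others of its group, where 27.3% of all genes were, and none below (25.6% of all genes). Of the 29, 12 were more than 2-fold above the median of the others, against 3.13% of all genes. Saa1 was 579.5 CPM there, against 10.1, 15.4 and 15.8 CPM. Lcn2 was 169.8 CPM, against 6.08 to 20.2 CPM, Fga was 10148 CPM, against 4429 to 5489 CPM, and Il1r1 was 110.7 CPM, against 39.9 to 53.5 CPM. The library thus stood apart in the abundant fibrinogen chain as well as in the inducible members.

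Replicate 1 of the WT males housed with Q50 of 10 months had 22 of the 29 members above all others, where 27% of all genes were, 1 below (25.8%) and 4 more than 2-fold above the median of the others (3.82%), with Saa1 at 652 CPM, against 11.2, 16.0 and 22.3 CPM. Its Lcn2 was 27.4 CPM, against 1.88 to 3.44 CPM. Replicate 2 of the Q20 males of 10 months had 20 of the 29 members above both others of its group, where 36.5% of all genes were, 1 below (32.2%) and 4 more than 2-fold above their median (3.96%), with Orm2 at 605 CPM, against 121 and 182 CPM, and Hp (haptoglobin) at 4873 CPM, against 1879.5 and 2859 CPM. Its Orm2 and Hp were the highest of the series, while Fga was 5364 CPM, against 4866 and 5799 CPM, inside the range of its group.

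Replicate 1 of the Q92 males of 6 months differed from the other 5. Saa1 was 739.6 CPM there, against 110.0, 141 and 314 CPM, and Saa2 was 589.5 CPM, against 27.8, 42.9 and 123 CPM, but 9 of the 29 members were above all others of the group (38% of all genes) and 14 were below (33.4% of all genes). More than 2-fold above the median of the others were 2 members, against 10.6% of all genes. The members below all others included Fga at 3452 CPM, against 3920 to 4549 CPM, Serpina3n (a serine protease inhibitor) at 228 CPM, against 278 to 337 CPM, and Orm3 at 0.727 CPM, against 2.63 to 4.43 CPM. This is also the library with a mitochondrial share of 15.5%, and its summed lymphocyte markers were 423 CPM, rank 6 of 93. Their part in the pattern was not tested.

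Markers of other cells did not move in 1 way with these 6 libraries. Summed neutrophil markers were 17.5 CPM in the WT male housed with Q50 (rank 2 of 93), 11.995 CPM in the WT female housed with Q20 (rank 6) and 10.8 CPM in the Q20 male of 6 months (rank 9), but 3.37 CPM in the Q50 male (rank 36), 4.36 CPM in the Q20 male of 10 months (rank 24) and 2.57 CPM in the Q92 male (rank 53). The series ran between 0.733 and 23.1 CPM with a median of 3.20 CPM, and Ly6g, a defining marker, had a median of 0. Macrophage markers summed to 696 CPM in the WT female (rank 3), and the other 5, all male, had ranks 53 to 92. These ranks are over both sexes, whose medians were 503 CPM in females and 238 CPM in males. The Q20 male of 6 months, at 334 CPM, was above the male median, and the other males, at 125.5 to 226 CPM, were below it. These markers were not compared within groups. The part of these cells in the pattern was not tested. Of 11 other positive acute phase genes, 10, 10, 7, 8, 7 and 9 were above the median of the other libraries of the group, in the order in which the 6 are ranked, where 61.3, 40.4, 38.6, 58.1, 32.1 and 43.1% of all genes were. The median ratio of the list was 1.66, 1.23, 1.18, 1.51, 1.11 and 1.44, with 1.07, 0.968, 0.938, 1.09, 0.924 and 0.967 over all genes. Fgl1, chosen here with the next 3 after the values were seen, was 4.50, 1.99, 1.99, 1.51, 1.55 and 2.81 times the median of the other libraries in the same order. Lrg1 was 3.75, 1.67, 1.63, 1.35, 1.46 and 2.52 times that median. The metallothionein Mt2 was 13.4, 28.9, 1.202, 28.4, 18.1 and 1.39 times the median. Hamp2, a copy of the iron hormone gene, was 0.911, 0.293, 0.411, 6.07, 0.503 and 0.247 times the median. Over 12 negative acute phase genes, which include albumin and transthyretin, the median ratio was 0.833, 1.021, 1.03, 1.13, 1.04 and 1.001.

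**Figure D2:**
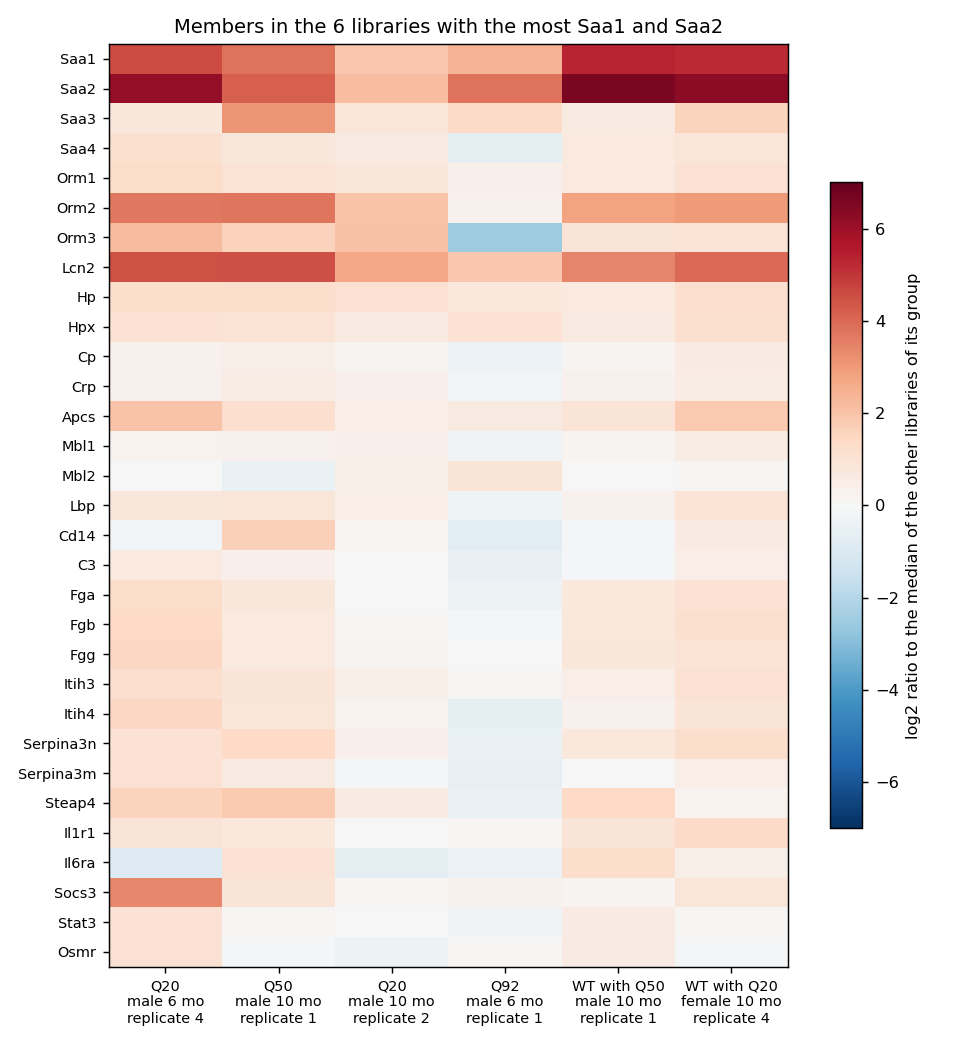
Log2 ratio of CPM to the median of the other libraries of the group, for 31 members (A2m is left out) in the 6 libraries with the highest summed Saa1 and Saa2. Of the 29 members other than Saa1 and Saa2, 20 to 26 were above all others of the group in 5 libraries, and 9 were above and 14 below in replicate 1 of the Q92 males of 6 months.

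Most members followed Saa1 between libraries of the same group. After the mean of each group was removed from log2 CPM, Saa2 had Pearson's r = 0.98 and Spearman's rho = 0.98 with Saa1 over the 93 libraries (two-sided permutation test within groups, unadjusted p = 1e-05 for each, the smallest that 100000 resamples can give). Lcn2 had r = 0.90 and rho = 0.87, Hp 0.87 and 0.82, Orm2 0.85 and 0.80, and Hpx (hemopexin, which binds haem) 0.84 and 0.79, each with p = 1e-05. Because Saa1 and Saa2 share sequence, their r is not free of the way reads were divided between them. Orm1 followed with r = 0.81, Apcs with 0.76, Itih3 (an inter-alpha-trypsin inhibitor heavy chain, which binds hyaluronan) with 0.76, Serpina3n with 0.74 and Lbp (lipopolysaccharide-binding protein) with 0.67. The fibrinogen chains had r = 0.54 for Fga, 0.64 for Fgb and 0.63 for Fgg, and the receptor Il1r1 had r = 0.59.

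Fitted with limma across 16125 genes, with the level of Saa1 as a covariate beside the 24 group means, 25 of the 31 other members rose with Saa1 and none fell at an adjusted p under 0.05. Of all genes 3.73% were called in either direction and 2.16% rose. The median r was 0.58 over the members and 0.01 over all genes. The slope, in log2 units per log2 unit of Saa1, was 1.15 ± 0.02 for Saa2, 0.84 ± 0.05 for Lcn2, 0.59 ± 0.04 for Orm2, 0.23 ± 0.02 for Hp, 0.17 ± 0.03 for Il1r1 and 0.06 ± 0.01 for Crp. Of the 31 slopes, those of Saa2, Lcn2 and Orm2 were above 0.5. The 6 members not called were Serpina3m (r = 0.27), Cd14 (0.17), A2m (0.16), Osmr (0.05), Il6ra (−0.01) and Mbl2 (−0.13).

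By the size of r over all genes, Saa2, Lcn2, Hp, Orm2 and Hpx held ranks 1 to 5 and 9 of the first 20 were members. The genes outside the group with the highest r were Fgl1 (0.84), Tmem176a (0.79), Serpina10 (0.79) and Lrg1 (0.78). The 2 libraries farthest from the median of Saa1 after removal of the group means were replicate 4 of the WT females housed with Q20 of 10 months and replicate 1 of the WT males housed with Q50 of 10 months. Without them r was 0.98 for Saa2 and 0.90 for Lcn2. The group means removed were still those of all 93 libraries, so these r are not free of the 2 libraries. In the limma fit the group means were fitted anew without them, and 24 members passed, where 2.72% of all genes were called. Among males alone (45 libraries) r was 0.99 for Saa2, 0.92 for Lcn2, 0.90 for Hp and 0.67 for Il1r1, and among females alone (48 libraries) it was 0.97, 0.87, 0.82 and 0.47 for the same genes. The members are not independent of each other.

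**Figure D3:**
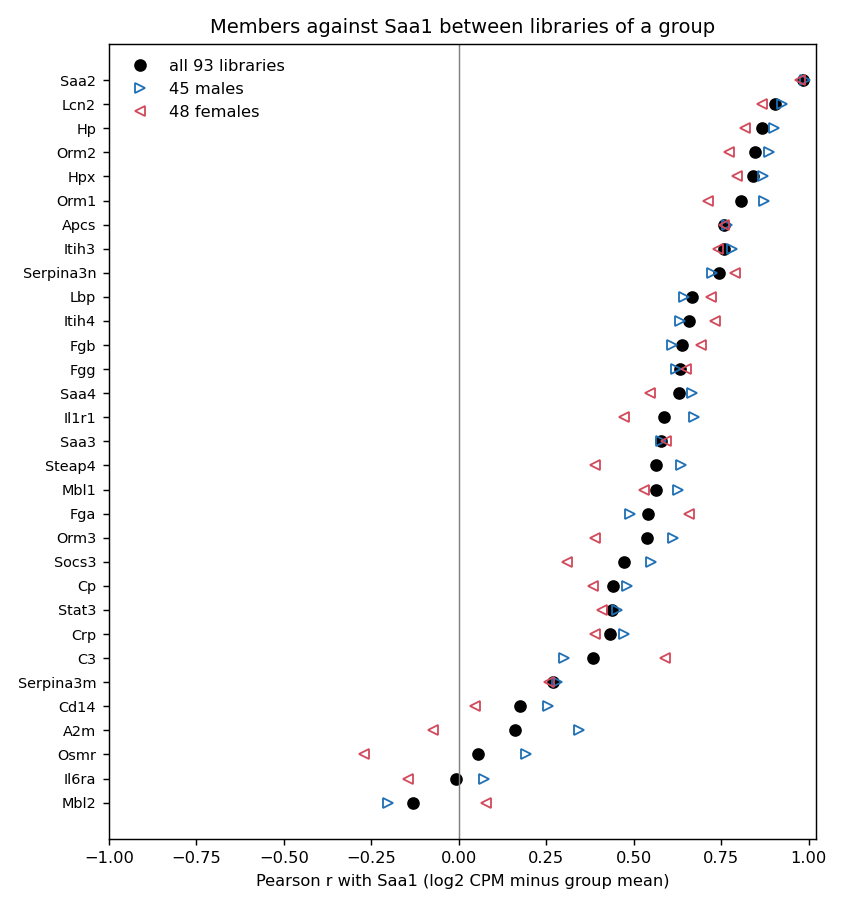
Pearson's r of each member with Saa1 after removal of the group means, over all 93 libraries (black), the 45 males and the 48 females (triangles). The values run between 0.98 (Saa2) and −0.13 (Mbl2) over all libraries.

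Between the sexes, Saa1 and Saa2 differed most, and both were higher in males. Saa1 ran between 11.2 and 1470.2 CPM with a median of 110.0 CPM in males, against 5.67 to 579.5 CPM with a median of 19.7 CPM in females, and was higher in males by a log2 difference of 2.68 ± 0.35 (6.40-fold, adjusted p = 5.67e-10). The ranges overlapped widely, the male median was above the female median in 11 of 12 strata of genotype, housing and age, and all males were above all females in 3 of them. Within 10 months the medians were 96.3 CPM in males and 18.1 CPM in females, and within 6 months 114 CPM in males and 21.1 CPM in females. Saa2 was higher in males by 2.61 ± 0.40 (6.11-fold, adjusted p = 3.95e-08) and Saa4 by 0.65 ± 0.07 (1.04e-12).

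Mbl2 showed the opposite and hardly overlapped. It ran between 104 and 353 CPM (median 216 CPM) in males and between 317 and 486 CPM (median 393 CPM) in females, a log2 difference of −0.89 ± 0.04 (adjusted p = 2.31e-31), and all males were below all females in 12 of 12 strata. Its relative Mbl1 was higher in males, with 106 to 181 CPM (median 139 CPM) against 73.9 to 144 CPM (median 99.2 CPM) in females, a difference of 0.46 ± 0.04 (4.68e-16). The 2 lectins thus differed in opposite directions between the sexes.

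Serpina3m was lower in males, at 112 to 422 CPM (median 229 CPM) against 300.0 to 626 CPM (median 440.3 CPM) in females, a difference of −0.94 ± 0.07 (3.66e-21), with no overlap in 9 of 12 strata. C3, the central complement component, was lower in males at 2892 to 11371 CPM (median 7515 CPM) against 6907 to 15889 CPM (median 11108 CPM) in females, a difference of −0.54 ± 0.05 (1.84e-14). Cd14 was lower by 0.86 on the log2 scale (−0.86 ± 0.10, 1.23e-11) and Orm3 by −1.22 ± 0.19 (7.07e-08). Hp was higher in males by 0.61 ± 0.09 (1.87e-08), Orm1 by 0.47 ± 0.08 (1.41e-07) and Il1r1 by 0.47 ± 0.10 (2.09e-05). Lcn2 (−0.04 ± 0.31, adjusted p = 0.919) and Orm2 (0.29 ± 0.24, 0.297) passed no threshold, although both followed Saa1 between libraries.

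In all, 13 of the 32 members were higher and 9 lower in males, where 66.7% of all genes were called, so the share of members called was close to that of the whole liver transcriptome. The other members called by counts were Saa3, Hpx, Fga, Fgg, Steap4 and Stat3, higher in males, and Apcs, Itih4, Lbp and Il6ra, lower in males. The median log2 difference was 0.16 over the members and −0.01 over all genes. On the scale of log2(FPKM + 0.1), where the median of all genes moved to −0.16, limma called 7 of 31 members higher and 12 lower in males. The 12 members given here with values kept their direction and their call on that scale, but Saa3, Hpx, Fga, Fgg, Steap4 and Stat3 passed no threshold there and Crp, Cp and Osmr were called lower. By FPKM 20.3% of all called genes were higher in males, against 48.7% by counts. The difference between males and females was tested against age, and none of the 32 members passed (1 at an unadjusted p under 0.05, against 14.3% of all genes, Crp with 0.21 ± 0.09 and adjusted p = 0.243), where 1.54% of all genes were called. The next by p were Il6ra (0.36 ± 0.22, 0.476) and Fgg (−0.23 ± 0.15, 0.512).

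Markers of other cells differed between the sexes as well. Their summed levels are scaled to the total count of each library, without the scale factors used for the members and for the tests. All 9 macrophage markers were lower in males, with a summed level of 95.0 to 561 CPM (median 238 CPM) against 274 to 727 CPM (median 503 CPM) in females, and none of the 9 had a median of 0. Of 7 neutrophil markers tested, 3 were higher in males, with a summed level of 0.733 to 23.1 CPM against 1.18 to 11.995 CPM in females. Lymphocyte markers were lower in males for 9 of 10 genes. Of all genes, 66.7% were called by sex in either direction. The part of these cells in the differences of Cd14, C3 or Saa1 was not tested.

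**Figure D4:**
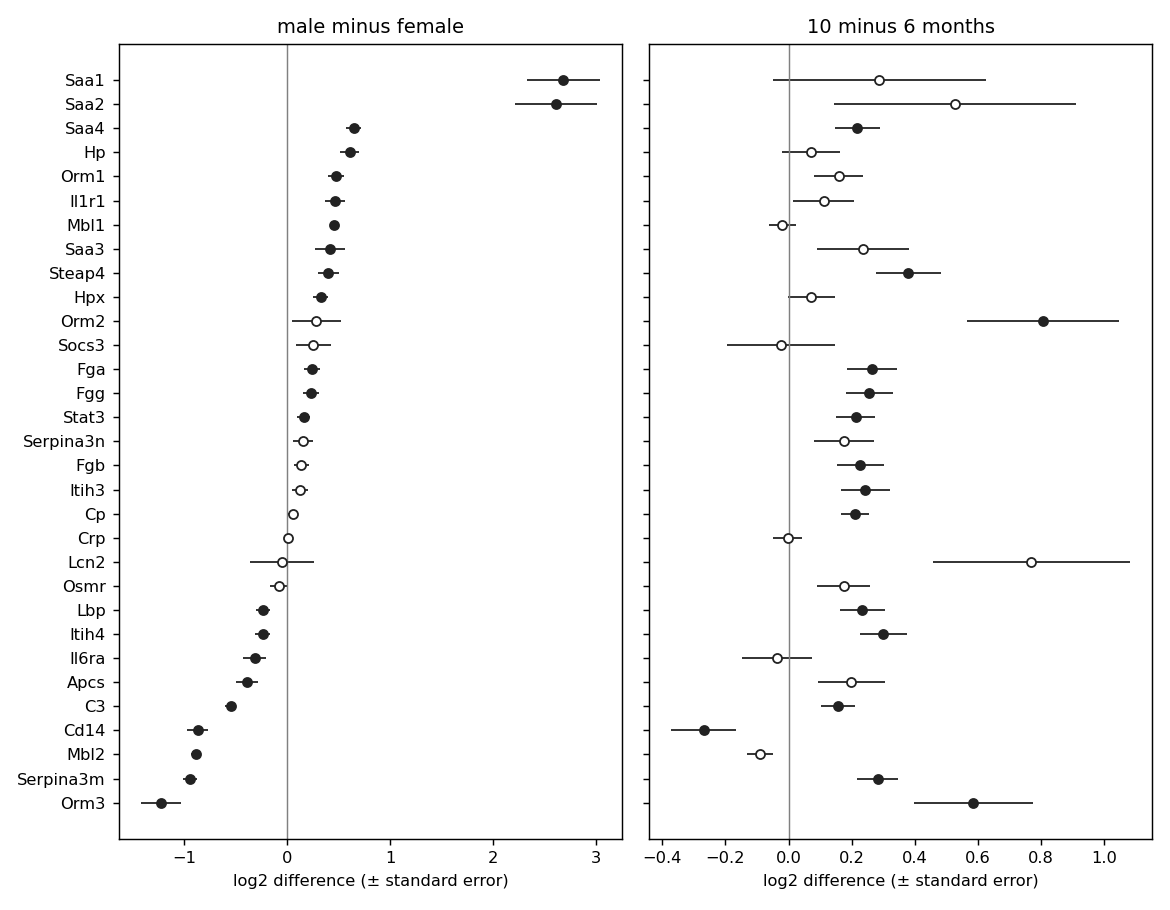
Log2 difference with its standard error for 31 members (A2m is left out), males minus females and 10 minus 6 months, from edgeR fits over 93 libraries. Filled points have an adjusted p under 0.05. Saa1 and Saa2 lie farthest to the right by sex (2.68 and 2.61) and Orm2 by age (0.81).

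With age, 14 of the 32 members were higher at 10 months and 1 was lower, where 25.4% of all genes were called. The median log2 difference was 0.21 over the members and 0.00 over all genes. Itih4, an inter-alpha-trypsin inhibitor heavy chain, ran between 765 and 4635 CPM (median 2463 CPM) at 10 months and between 1186 and 4342 CPM (median 2075 CPM) at 6 months, a difference of 0.30 ± 0.07 (adjusted p = 0.00125), and its older median was above the younger in 12 of 12 strata. Cp (ceruloplasmin, the copper carrier) had medians of 1260.4 CPM at 10 months and 1132 CPM at 6 months, a difference of 0.21 ± 0.04 (0.000185), with the older median higher in 12 of 12 strata. Stat3 had medians of 146 CPM at 10 months and 113 CPM at 6 months (0.21 ± 0.06, 0.00682), also in 12 of 12.

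All 3 fibrinogen chains rose, Fga by 0.26 ± 0.08 (0.0095), Fgg by 0.26 ± 0.07 (0.00682) and Fgb by 0.23 ± 0.07 (0.0177). Serpina3m was higher at 10 months by 0.28 ± 0.07 (0.000763), Steap4 by 0.38 ± 0.10 (0.00353), Lbp by 0.23 ± 0.07 (0.00963), Itih3 by 0.24 ± 0.08 (0.0154), Saa4 by 0.22 ± 0.07 (0.017) and C3 by 0.16 ± 0.05 (0.0245). The largest differences among the members called were those of Orm2 (0.81 ± 0.24, 0.00883) and Orm3 (0.59 ± 0.19, 0.016). Orm2 ran between 4.49 and 605 CPM (median 32.8 CPM) at 10 months and between 7.01 and 244 CPM (median 25.03 CPM) at 6 months, and its older median was above the younger in 6 of 12 strata. Cd14 was the member lower at 10 months (−0.27 ± 0.10, 0.0415). It passed no threshold on log2(FPKM + 0.1), where limma called the other 14 and no member lower.

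Saa1, Saa2 and Lcn2 passed no threshold by age. Saa1 had 6.52 to 1270.1 CPM (median 31.03 CPM) at 10 months and 5.67 to 1470.2 CPM (median 41.1 CPM) at 6 months, a difference of 0.29 ± 0.34 (adjusted p = 0.583). Saa2 differed by 0.53 ± 0.38 (0.334), Lcn2 by 0.77 ± 0.31 (0.0595), Hp by 0.07 ± 0.09 (0.632) and Il1r1 by 0.11 ± 0.10 (0.429). Lymphocyte markers were higher at 10 months for 7 of 10 genes, with a summed median of 54.5 CPM against 22.7 CPM at 6 months. Neutrophil markers were higher for 2 of 7, where 25.4% of all genes were called by age in either direction. The part of these cells in these differences was not tested. The labels hold numbers after the letter L, of which 1 to 8 occur at both ages. They were taken here as lanes, which the labels do not say, and no run or date is given. The leading numbers of the labels form a separate series at each age, so age and label series cannot be told apart. The part of the sequencing run in these differences was not tested.

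Among genotypes at 6 months, no member passed in any comparison by edgeR or by DESeq2. In Q20 against WT mice of the same housing 0.0062% of all genes were called, and 1 member had an unadjusted p under 0.05, against 4.38% of all genes. The smallest p-values were those of Mbl2 (−0.21 ± 0.10, adjusted p = 0.979), Osmr (−0.32 ± 0.20) and Saa4 (0.27 ± 0.17). Without replicate 3 of the WT males Osmr was −0.0053, and without replicate 4 of the Q20 males it was −0.48 and Saa4 was 0.08. In Q50 against WT mice of the same housing 0.0062% were called, 3 members had an unadjusted p under 0.05 (2.24% of all genes), and Socs3 (−0.90 ± 0.41), Il1r1 (−0.49 ± 0.23) and Il6ra (−0.54 ± 0.27) had the smallest p, each with an adjusted p of 1. Without replicate 1 of the WT males Socs3 was −0.12 and Il1r1 −0.31, and without replicate 2 of the WT females Il6ra was −0.35. In Q92 against Q20 mice 0.0062% were called and no member had an unadjusted p under 0.05 (9.1% of all genes), the nearest being Cp (−0.18 ± 0.11, adjusted p = 0.599), Il6ra (−0.41 ± 0.26) and Itih4 (−0.24 ± 0.18), of which Itih4 was −0.012 without replicate 4 of the Q20 males.

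In Q140 against Q20 mice of 6 months 0.0558% of genes were called and 1 member had an unadjusted p under 0.05 (11.7% of all genes), with Cp (−0.21 ± 0.11, adjusted p = 0.419), Crp (−0.20 ± 0.11, or −0.13 without replicate 3 of the Q20 females) and Mbl2 (−0.16 ± 0.10) first. The same 3 genes led the linear trend over CAG length, scaled to the change between 20 and 140, with Crp at −0.22 ± 0.10 (0.396), Cp at −0.18 ± 0.10 and Mbl2 at −0.13 ± 0.09, where 0.0248% of genes were called and 1 member had an unadjusted p under 0.05 (11.5% of all genes). Between WT mice housed with Q50 and those housed with Q20, 0.0186% of genes were called and 3 members had an unadjusted p under 0.05 (5.39% of all genes), Cd14 (0.73 ± 0.24, adjusted p = 0.479), Saa4 (0.39 ± 0.17, or 0.16 without replicate 1 of the males housed with Q50) and Hpx (−0.36 ± 0.18).

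At 10 months the receptor Il1r1 stood out from the other members. It lies at chr1:40225080-40317257 on the plus strand of GRCm38. Its CPM ran between 20.5 and 45.1 (median 36.0, 7 libraries) in Q140 mice and between 48.5 and 93.9 (median 79.5, 7 libraries) in Q20 mice, so the 2 genotypes did not overlap. It was lower in Q140 mice by a log2 difference of −1.07 ± 0.25 (0.475-fold, edgeR adjusted p = 0.0284), the 1 member called where 0.44% of all genes were called. The call rests on a margin. Without any of 6 single libraries it was lost (adjusted p 0.0722 to 0.102), namely replicate 4 of the Q140 females, replicates 2 and 3 of the Q140 males, replicate 3 of the Q20 females and replicates 2 and 3 of the Q20 males, all of 10 months.

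The same receptor differed between the wild types by housing. In WT mice housed with Q50 it ran between 19.7 and 47.7 CPM (median 25.6, 8 libraries) and in WT mice housed with Q20 between 39.9 and 153 CPM (median 78.7, 8 libraries). The only library of the WT mice housed with Q50 above 39.9 CPM was replicate 1 of the males, named above for its high Saa1. The log2 difference was −1.49 ± 0.24 (0.356-fold, adjusted p = 0.000176), the 1 member called where 1.9% of all genes were called, and it was called under each alternative run (adjusted p 4.94e-07 to 0.0255). Ordered by their medians at 10 months, Il1r1 was 25.6 CPM in WT housed with Q50, 29.7 CPM in Q50, 35.7 CPM in Q92, 36.0 CPM in Q140, 78.7 CPM in WT housed with Q20 and 79.5 CPM in Q20 mice. In Q50 mice it ran between 22.7 and 65.9 CPM and in Q92 mice between 18.2 and 79.9 CPM, so these overlapped with each of their neighbours in this order. Within a housing, Q20 mice differed from their WT by −0.10 ± 0.24 (0.887) and Q50 mice from theirs by 0.27 ± 0.23 (1). Against the WT of both housings together, Q140 mice differed by −0.43 (0.831). Since each of Q92 and Q140 differs from Q20 in housing too, genotype and housing cannot be told apart in those comparisons. A further number in the labels runs in a separate series for each housing at 10 months, shared by Q20 or Q50 mice and their WT. What this number stands for is not given, and housing cannot be told apart from it.

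At 6 months the Il1r1 levels of all 6 groups overlapped, with medians of 32.6 CPM (Q50), 35.5 CPM (WT housed with Q50), 37.5 CPM (WT housed with Q20), 39.3 CPM (Q140), 43.3 CPM (Q92) and 48.1 CPM (Q20). The housing difference between the wild types differed between ages by −1.81 ± 0.33 for Il1r1 (adjusted p = 0.00158) and by −1.42 ± 0.35 for Cd14 (0.03), where 0.552% of genes were called, in a contrast chosen after the values were seen. Cd14 had medians of 1.66 CPM in WT housed with Q50 and 2.86 CPM in WT housed with Q20 at 10 months, and of 4.58 CPM and 2.86 CPM in the same order at 6 months, so its direction was opposite at the 2 ages. For Q140 against Q20 the test of the difference between ages called no member (0.0682% of all genes, 2 members and 11.5% of all genes at an unadjusted p under 0.05, 0 members by DESeq2), with Orm3 (−1.98 ± 0.67, adjusted p = 0.213), Il1r1 (−0.86 ± 0.34, 0.294) and Stat3 (−0.41 ± 0.22, 0.47) first.

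**Figure D5:**
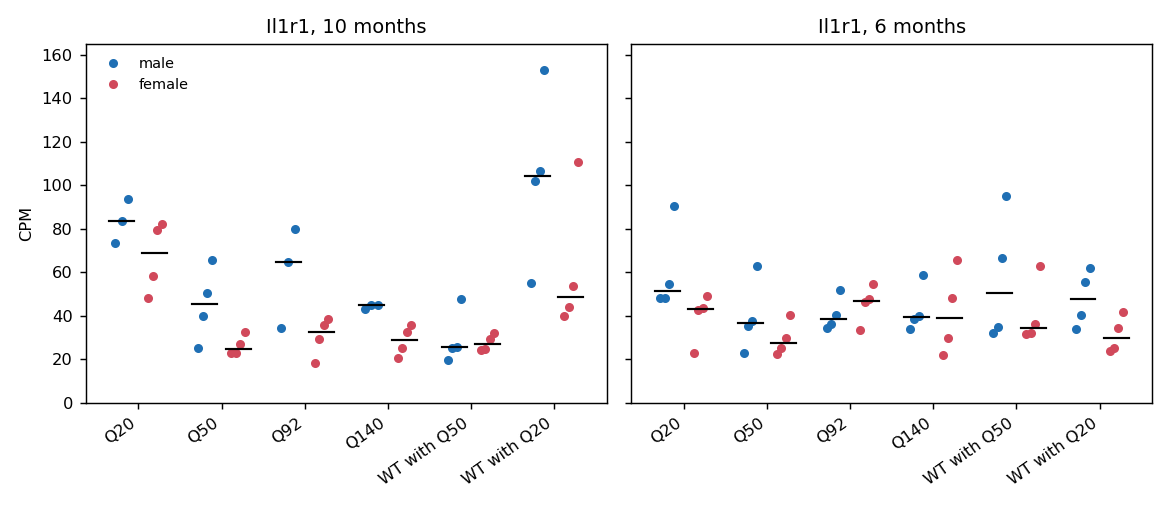
Il1r1 in CPM in each library, by genotype and housing, at 10 months (left) and 6 months (right), with males in blue, females in red and the median as a black bar. At 10 months the Q140 mice (20.5 to 45.1 CPM) lie below all Q20 mice (48.5 to 93.9 CPM), and the WT housed with Q50 (19.7 to 47.7 CPM) lie mostly below the WT housed with Q20 (39.9 to 153 CPM).

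Across the rest of the group, most point estimates at 10 months were below 0 in both of these comparisons without passing the test. In Q140 against Q20 mice 30 of 32 members were below 0 with a median of −0.26, while the median of all genes was 0.00, and 6 members had an unadjusted p under 0.05, against 11.9% of all genes. After Il1r1 the smallest p-values were those of Orm3 (−1.46 ± 0.49, adjusted p = 0.19) and Orm1 (−0.50 ± 0.20, 0.282). In WT mice by housing 29 of 32 were below 0 with a median of −0.34, against −0.02 over all genes, and 9 had an unadjusted p under 0.05 (16.7% of all genes), led after Il1r1 by Osmr (−0.60 ± 0.20, 0.0945) and Cd14 (−0.70 ± 0.25, 0.123). The members vary together between libraries, so such a count moves with a few libraries, and no test of it was made. Macrophage markers summed to 177 to 646 CPM in Q140 and 213 to 673 CPM in Q20 mice, and to 226 to 653 CPM in WT housed with Q50 and 95.0 to 727 CPM in WT housed with Q20, and none of the 9 was called in either comparison. Neutrophil markers summed to 1.10 to 7.21 CPM in Q140 and 2.58 to 5.46 CPM in Q20 mice, and to 1.81 to 17.5 CPM in WT housed with Q50 and 2.13 to 13.7 CPM in WT housed with Q20, and none of 7 tested was called.

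In the other comparisons at 10 months no member passed by edgeR. In Q92 against Q20 mice 2.6% of all genes were called and 4 members had an unadjusted p under 0.05, a share below the 18.6% of all genes. Il1r1 (−0.81 ± 0.25, adjusted p = 0.0606), Saa3 (−1.18 ± 0.38, 0.0698) and Cd14 (−0.60 ± 0.27, 0.207) were nearest, and DESeq2 called 2, Il1r1 and Saa3. Saa3, the serum amyloid A of macrophages and fat, ran between 1.03 and 2.22 CPM in Q92 mice and between 1.67 and 10.1 CPM in Q20 mice. Without the 4 libraries that stood apart, 2 members passed by edgeR as well, while the number of all genes called was 855, against 419 with them. In this comparison 3 of 8 stellate cell and fibroblast markers were higher in Q92 mice, and their part in the result was not tested.

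In Q20 against WT of the same housing 0.0062% of genes were called and no member had an unadjusted p under 0.05 (11.9% of all genes), with Orm3 (0.84 ± 0.46, adjusted p = 0.457), Saa3 (0.56 ± 0.35) and Orm2 (0.92 ± 0.60) first and 0 by DESeq2. Without replicate 2 of the Q20 males Orm3 was 0.33 and Orm2 0.42, and without replicate 4 of the WT females Orm2 was 1.49 and Saa3 0.88. In Q50 against WT of the same housing 0.0124% were called and 1 member had an unadjusted p under 0.05 (2.31% of all genes), which was A2m, for which no fold is given. Crp (0.22 ± 0.11) and Cd14 (0.43 ± 0.25) followed, each with an adjusted p of 1, and DESeq2 called 0. Without replicate 1 of the Q50 males Cd14 was 0.15. In the linear trend over CAG length 0.329% of genes were called and 3 members had an unadjusted p under 0.05 (11.3% of all genes), Il1r1 (−0.80 ± 0.24, adjusted p = 0.114), Orm3 (−0.96 ± 0.46, or −0.55 without replicate 2 of the Q20 males) and Steap4 (−0.51 ± 0.25), with 0 by DESeq2.

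The most inducible members had wide intervals in every comparison of genotype or housing. Over the 12 comparisons of genotype, housing or CAG trend within an age, Saa1 differed by between −1.39 ± 0.82 (WT by housing, 10 months) and 0.79 ± 0.82 (Q20 against WT, 6 months), with no adjusted p below 0.391. Saa2 differed by between −1.23 ± 0.93 and 1.025 ± 0.94 in the same comparisons, with no adjusted p below 0.532. Lcn2 differed by between −1.11 ± 0.75 (WT by housing, 10 months) and 1.34 ± 0.80 (Q92 against Q20, 10 months), Orm2 by between −1.23 ± 0.63 (Q140 against Q20, 10 months) and 0.92 ± 0.60 (Q20 against WT, 10 months), and Hp by between −0.34 ± 0.22 (WT by housing, 10 months) and 0.29 ± 0.24 (Q92 against Q20, 10 months). With standard errors this size, a change of 2-fold in Saa1 or Saa2 was not detectable between genotypes.

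The effect of Q140 against Q20 was also compared between males and females. No member passed by edgeR where 0.124% of all genes were called, and 10 had an unadjusted p under 0.05, where 8.12% of all genes did. DESeq2 called 2, Orm2 and Saa2. Orm2 differed by −3.12 ± 0.87 (adjusted p = 0.141), Saa2 by −4.58 ± 1.42 (0.232), Saa1 by −3.90 ± 1.23 (0.242) and Lcn2 by −3.39 ± 1.12 (0.281). Saa1 was 175, 197 and 158 CPM in Q140 males and 96.3, 1171 and 547 CPM in Q20 males of 10 months, against 30.97, 44.9, 13.1 and 25.5 CPM in Q140 females and 13.9, 40.7, 14.3 and 16.9 CPM in Q20 females of that age. At 6 months it was 118, 46.6, 164.6 and 33.5 CPM in Q140 males and 621, 14.2, 63.0 and 1470.2 CPM in Q20 males, against 63.7, 119, 339 and 33.2 CPM in Q140 females and 22.1, 10.5, 22.8 and 12.4 CPM in Q20 females. The Q20 males include 2 of the 6 libraries with the highest summed Saa1 and Saa2, and all Q140 females of 6 months were above all Q20 females of 6 months.

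Of the pathway genes outside the group, few passed in the comparisons of genotype or housing at 10 months. Of all genes, 0.44% were called in Q140 against Q20 mice and 1.9% in WT mice by housing. Among 26 tested genes of interleukin-6, interleukin-1 and NF-kB signalling (29 listed), 0 passed in Q140 against Q20 mice (3 at an unadjusted p under 0.05) and 0 in WT mice by housing (3 unadjusted). Of 10 glucocorticoid and fasting response genes, 2 were lower in both, Cdkn1a by −1.83 ± 0.37 (adjusted p = 0.0137) in Q140 mice and −1.84 ± 0.33 (0.00132) in WT mice housed with Q50, and Zbtb16 by −2.26 ± 0.57 (0.0476) and −2.54 ± 0.53 (0.0043) in the same order.

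By sex, 8 of 26 signalling genes were higher and 10 lower in males, a share close to the 66.7% of all genes called. Irak1, a kinase of interleukin-1 signalling, was higher by 0.32 ± 0.02 (adjusted p = 4.4e-24), Il1rap, the partner chain of Il1r1, by 0.46 ± 0.03 (3.9e-23) and the kinase Pim1 by 1.07 ± 0.12 (3.88e-12), and the NF-kB subunit Relb was lower (−0.52 ± 0.07, 4.37e-09). By age, 1 signalling gene was higher and 8 were lower at 10 months, where 25.4% of all genes were called. Those lower were led by Cebpd (−0.60 ± 0.12, 7.69e-05), Lifr (−0.32 ± 0.07, 0.000267), Bcl3 (−0.31 ± 0.08, 0.00195) and Cebpb (−0.41 ± 0.11, 0.00295). Cebpd and Cebpb encode C/EBP factors of the acute phase response.

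Among 11 other positive acute phase genes, 2 were higher and 8 lower in males, where 66.7% of all genes were called, and none passed by age (2 at an unadjusted p under 0.05, against 36.4% of all genes). The terminal complement component C9 was higher in males by 1.67 ± 0.06 (2.28e-37), whereas Hamp2 was lower (−5.80 ± 0.25, 6.55e-33), as were the interleukin-1 receptor antagonist Il1rn (−1.52 ± 0.12, 6.61e-19) and the metallothionein Mt1 (−2.73 ± 0.28, 7.98e-14). Of 12 negative acute phase genes, 5 were higher and 6 lower in males, and 2 were higher and 2 lower at 10 months, where Alb (0.11 ± 0.04, 0.0152) and Trf (0.10 ± 0.03, 0.0196) were higher and Apoa1 (−0.22 ± 0.06, 0.00163) and Cyp3a11 (−0.20 ± 0.06, 0.00872) lower. Of the 10 glucocorticoid and fasting response genes, 1 was higher and 4 lower in males, and 1 was higher and 5 lower at 10 months. Beside these counts, 66.7% of all genes were called by sex and 25.4% by age.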

How the data were processed

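Liver mRNA was sequenced in 93 libraries, and the authors deposited 1 table of expected counts and 1 table of FPKM values for 39179 genes. CASAVA 1.8.2 is named in the submitters' processing notes. The aligner, the counter, the genome build, the annotation and the use of strand are not given in the sources used here. The deposited expected counts were rounded, since 26% of those above 0 lay over 0.001 from a whole number. Genes were kept by filterByExpr of edgeR (minimum count 10, minimum total 15), which left 16126, with all 32 members among them. TMM factors were 0.847 to 1.156. One mean was fitted for each of the 24 groups, and contrasts were tested with edgeR 4.0.16 (glmQLFTest, R 4.3.3), with p-values adjusted by Benjamini-Hochberg over all genes of a contrast. A gene was called at an adjusted p under 0.05. CPM of the members were computed with these factors. CPM of the cell and tissue markers and of the other gene lists were scaled to the total count alone. So were the ratios of those lists in the libraries named singly, and the ratios over all genes given beside them. The 2 kinds of CPM are therefore not on the same scale. Sexes were averaged with equal weight in comparisons of genotype, and sex and age were averaged over 12 strata each. The deposited FPKM, which the authors normalized by length and depth, served to compare levels between genes and, as log2(FPKM + 0.1) with limma 3.58.1, as an alternative unit. A difference on that scale understates the change of low genes. DESeq2 1.42.0 was another alternative. Correlations used log2 CPM with a prior count of 2 and 100000 resamples within groups. Procedures were tested on simulated data.

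The members and the other gene lists were chosen with earlier results of these data known. Every member past the threshold is named with values (of more than 12, the 12 with the smallest p), and where none passed, the 3 with the smallest p. Saa1, Saa2, Lcn2, Orm2, Hp and Il1r1 are given in each kind of comparison. Single libraries are named by their summed Saa1 and Saa2. The interactions of housing and of sex with age, the omission of the 4 libraries that stood apart and the limma slope on Saa1 with its alternatives were chosen after the data were seen.

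Libraries with the same replicate number in different groups were compared. In 20 pairs of groups none had every correlation of deviations above 0.1, and 16 of 77 single correlations were above it (r between −0.27 and 0.27), so the numbers were not taken as pairs. Promoters were read from RefSeq windows of GRCm38.p6. Counting error is small beside the spread between libraries at these depths, except for A2m.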

Additional observations from a re-analysis of the deposited data

Results flagged for a closer look

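Within each of the 21 groups of 4 libraries, 6 measures were searched for a library far from the other 3 (Dixon's ratio above its 95% critical value). Of 126 such searches 22 found a library, of which 21 were the highest of their group, whereas chance gives about 1 in 20, or 6.3, for independent and normally spread values. CPM are skewed towards high values and the 6 measures vary together, so the 22 are not to be read against 6.3.

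Summed Saa1 and Saa2 set apart 7 libraries. The level was 74.5 CPM in replicate 2 of the Q20 females of 10 months (others 22.8 to 27.02 CPM), 2364 CPM in replicate 1 of the Q50 males of 10 months (45.2 to 300.2 CPM), 246 CPM in replicate 4 of the Q92 females of 6 months (11.7 to 22.1 CPM) and 257 CPM in replicate 3 of the Q92 females of 10 months (35.9 to 69.2 CPM). Among WT mice it was 1177 CPM in replicate 1 of the males housed with Q50 of 10 months (14.5 to 29.6 CPM), 637 CPM in replicate 3 of the males housed with Q20 of 10 months (44.5 to 106 CPM) and 1047 CPM in replicate 4 of the females housed with Q20 of 10 months (16.2 to 21.9 CPM).

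Lcn2 set apart 6 libraries. It was 112 CPM in replicate 3 of the Q140 females of 6 months (others 14.8 to 26.1 CPM), 44.8 CPM in replicate 2 of the Q140 females of 10 months (6.64 to 9.02 CPM) and 230.2 CPM in replicate 1 of the Q50 males of 10 months (7.38 to 13.6 CPM). It was 27.4 CPM in replicate 1 of the WT males housed with Q50 of 10 months (1.88 to 3.44 CPM), 26.3 CPM in replicate 3 of the WT males housed with Q20 of 10 months (5.65 to 8.64 CPM) and 169.8 CPM in replicate 4 of the WT females housed with Q20 of 10 months (6.08 to 20.2 CPM). So 4 of the 6 libraries were also apart by Saa1 and Saa2, and the 2 Q140 females were not. Both were still the highest of their group in that sum. It was 505 CPM in the library of 6 months (others 51.4 to 172 CPM) and 61.3 CPM in that of 10 months (19.9 to 54.3 CPM).

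Orm2 was 244 CPM in replicate 3 of the Q140 females of 6 months (others 38.8 to 60.5 CPM), 323 CPM in replicate 1 of the Q50 males of 10 months (18.2 to 25.8 CPM) and 117 CPM in replicate 3 of the Q92 females of 10 months (22.0 to 35.4 CPM). Serpina3n was 922 CPM in replicate 1 of the Q50 males of 10 months (331 to 367 CPM) and 834 CPM in replicate 4 of the WT females housed with Q20 of 10 months (355 to 366 CPM). Hp was 1931 CPM in replicate 2 of the WT females housed with Q50 of 6 months (1329 to 1400.4 CPM), and that library was also highest in Il1r1, with 62.9 CPM (31.7 to 36.2 CPM). The 1 library apart on the low side was replicate 4 of the Q50 females of 10 months, with 892.9 CPM of Hp (1230.07 to 1284 CPM). Il1r1 was 90.7 CPM in replicate 4 of the Q20 males of 6 months (48.1 to 54.7 CPM).

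The difference between WT mice housed with Q50 and those housed with Q20 was itself different at 10 and at 6 months for 2 members, by −1.81 ± 0.33 on the log2 scale for Il1r1 (edgeR adjusted p = 0.00158) and by −1.42 ± 0.35 for Cd14 (0.03).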

How the results depend on the processing

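Each comparison, apart from the interactions of housing and of sex with age, was recomputed under other settings. These were DESeq2, RLE factors, no filter on low counts, a replicate block and lane as a covariate. Lane is the number after the letter L in the label, and index the part that begins with D. Both are readings made here. In the lane covariate, libraries lacking an index formed 1 level at each age, whatever their number. Others were log2(FPKM + 0.1) with and without a filter, and log2(FPKM + 1). Further fits left out the 16 libraries lacking an index in the label, the 4 libraries that stood apart, or each library in turn. Where a single library was left out, the gene filter, the scale factors and the dispersion of the full fit were kept. The spread used there thus still holds the library left out. Comparisons within an age were also run with each age fitted alone. The interactions of housing and of sex with age were not recomputed in any of these settings. The number of members called in Q140 against Q20 at 10 months was 1 and became 0 with no filter on low counts, with lane as a covariate, without libraries lacking an index, with log2(FPKM + 0.1) and no filter, and with the WT of both housings in place of Q20. The adjusted p of Il1r1 was 0.0535, 0.219, 0.236, 0.0561 and 0.831 in these, and between 0.00781 and 0.0426 in the other settings, leaving aside the omission of single libraries, where it reached 0.102. In Q92 against Q20 at 10 months the number was 0 and became 2 with DESeq2, 1 with the replicate block and 2 without the 4 libraries that stood apart. In the test of Q140 against Q20 between the sexes it was 0 and became 2 with DESeq2. The replicate block changed no other call count by over 1.5 times, and left 15 members called by age and 22 by sex. Leaving out 1 library gave 0 to 1 members called in Q140 against Q20 and in Q92 against Q20 at 10 months (1 for Q92 without replicate 1 of the Q20 males or replicate 2 of the Q92 males), 1 to 3 in WT mice by housing at 10 months (2 without replicate 3 of the males housed with Q20, 3 without replicate 1 of the males housed with Q50), 14 to 17 by age, 22 to 23 by sex and 0 elsewhere. The log2 difference of Stat3 between males and females reversed on FPKM, to −0.0108 with a pseudocount of 0.1 (with or without the filter) and −0.0106 with a pseudocount of 1. The count of 25 members that rose with Saa1 in the limma fit was 24 without the 2 libraries farthest from the median and 25 on FPKM, all of them among the 25. The causes of these changes were not tested. With 3 or 4 libraries a group, the within-group SD was 1.66 (Saa1) or 1.94 (Saa2) log2 units. Small changes of these genes between genotypes or housings are therefore not detectable here. Comparisons by sex or age average over more groups and have smaller standard errors.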
